A study of Homo sapiens with 14 samples.

Results

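The N-glycan genes described here encode the enzymes and carriers that build the oligosaccharide of secreted and membrane proteins, transfer it to the growing protein and remodel it on the way to the cell surface. They were taken by name: every guide RNA whose gene symbol is 1 of 40 listed genes, out of 18905 gene symbols in the guide tables. Of the 40 genes, 28 could be compared between sorted cells and 12 lie in a sublibrary with 1 usable library, so for these only guide abundance is given. The screen asked which genes, when repressed, change the level of the delta opioid receptor (DOR) left after its agonist has acted. The cells were HEK293 FLP-In, a line of human embryonic kidney origin, and carried DOR fused to the peroxidase APEX2 under a ubiquitin C promoter and the repressor dCas9-KRAB, in clonal lines chosen for knockdown. A genome-wide CRISPR interference library of 5 guides per gene start, in 7 sublibraries named H1 to H7, was introduced by lentivirus. Every culture was selected with 0.75 µg/ml puromycin for 3 days, from 2 days after transduction. After 8 days in all it received 10 µM of the opioid peptide DADLE for 90 minutes, and the peroxidase then turned 100 µM Amplex UltraRed fluorescent during 1 minute with 50 µM H2O2. The top (brightest) and the bottom (dimmest) quartile of each sublibrary were sorted, with 1 library each and no repeat sort among the samples, and no library came from unstimulated cells.

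In the endoplasmic reticulum (ER), the sugar chain is assembled step by step on the lipid dolichol, first on the cytosolic and then on the lumenal side of the membrane. The oligosaccharyltransferase moves it to asparagines of new proteins. Glucosidases and mannosidases trim the chain, and Golgi enzymes add branches, galactose and sialic acid. DOR is itself a glycoprotein that folds in the ER, and its N-glycans mature in the Golgi. Guide counts do not measure RNA, so the degree of knockdown of any of these genes is unknown here.

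The guides direct the repressor to gene starts. The 250 bases before the annotated start are therefore shown, 5′ to 3′ on the gene's own strand, for B3GNT2, which passed the test, for DDOST, whose guides lay far out on both sides of 0, and for DHDDS, whose ratios differed between 2 clusters of guides. The sequences are those of RefSeq in build GRCh38.p14, and capitals mark TGACGTG, the core of an element bound by XBP1 and ATF6 of the unfolded protein response. B3GNT2 is at chr2:62195865-62196114 on the plus strand, DHDDS at chr1:26432071-26432320 on the plus strand and DDOST at chr1:20661370-20661619 on the minus strand.
B3GNT2: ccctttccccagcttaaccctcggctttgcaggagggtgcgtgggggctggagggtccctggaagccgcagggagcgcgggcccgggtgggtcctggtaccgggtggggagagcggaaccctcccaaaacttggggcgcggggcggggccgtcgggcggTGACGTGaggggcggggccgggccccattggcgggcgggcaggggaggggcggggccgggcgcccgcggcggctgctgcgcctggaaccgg
DHDDS: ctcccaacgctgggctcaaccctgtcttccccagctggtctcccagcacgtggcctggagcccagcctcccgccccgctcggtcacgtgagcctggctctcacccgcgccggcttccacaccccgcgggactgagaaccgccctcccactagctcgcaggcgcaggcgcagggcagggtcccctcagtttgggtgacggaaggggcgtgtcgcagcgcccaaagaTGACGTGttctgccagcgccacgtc
DDOST: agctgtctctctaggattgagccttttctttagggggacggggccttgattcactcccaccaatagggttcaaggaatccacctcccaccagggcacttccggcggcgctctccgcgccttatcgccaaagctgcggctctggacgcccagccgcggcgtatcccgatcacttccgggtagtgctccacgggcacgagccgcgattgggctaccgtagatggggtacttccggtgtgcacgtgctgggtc
The RefSeq promoter table used here was matched for 35 of the 40 genes, the others being RPN1, MOGS, STT3B, MAN1A2 and ALG10. Of the 35, 3 hold TGACGTG on either strand (B3GNT2, DHDDS and MGAT1), or 8.57%, against 1.71% of 27305 promoters of the same length. A match is a stretch of letters and not a shown binding site. GG, or CC for the other strand, is the core of the motif that Cas9 needs beside its target. It occurs 95 times in the B3GNT2 stretch, 60 times in that of DHDDS and 54 times in that of DDOST, overlapping pairs included, with a median of 47 over all promoters. The guides of an N-glycan gene spanned 55 to 918 bases, with a median of 397. The build of the positions in the guide names was not given in the sources used here, so guides were not placed on these sequences.

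Of the 28 compared genes, only B3GNT2 passed the test, with its guides more frequent in the bottom quartile. No gene was called higher in the top quartile. Values are log2(top/bottom) per guide, with the median non-targeting guide of the sublibrary at 0, averaged over the guides of a gene. A negative value thus means a smaller share of a guide in bright than in dim cells. Each gene's guides were set against non-targeting guides by permutation, two-sided, and p was adjusted by Benjamini-Hochberg over all 18116 targets (gene starts), with a threshold of 0.05. These p-values compare guides within 1 pair of libraries and hold no spread between sorts. By this rule 0 N-glycan genes were higher in the top, where 2.38% of all targets were, and 1 was higher in the bottom, where 1.51% of all targets were. In either direction the share was 3.57% of the 28 genes and 3.89% of all targets. At an unadjusted p under 0.05, 4 genes lay toward the top, where 7.46% of all targets did, and 2 toward the bottom, where 4.9% did. Both directions together made up 21.4% of the 28 genes and 12.4% of all targets. The median of the 28 means was -0.02, against 0.01 over all targets, and their median size without sign was 0.08, against 0.09.

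**Figure D1:**
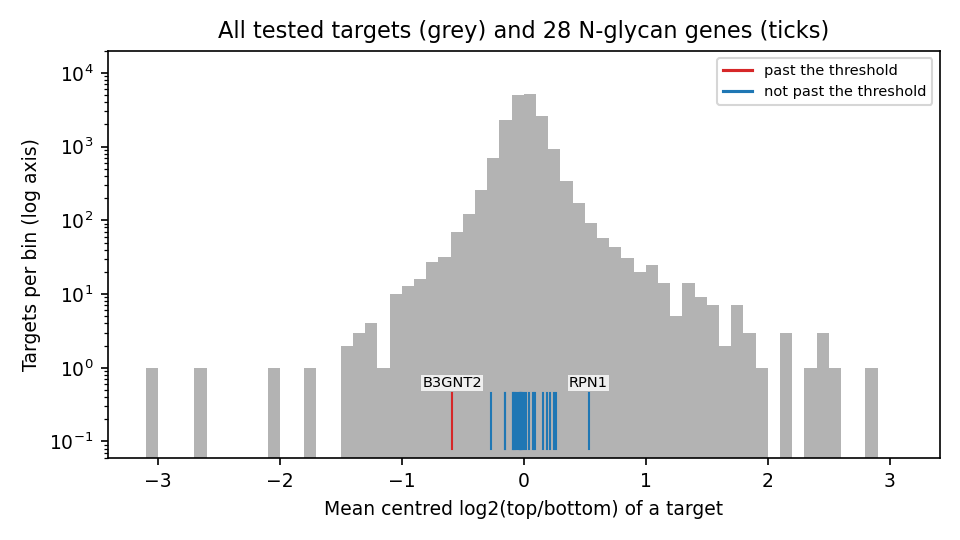
Distribution of the mean centred log2(top/bottom) over all 18116 targets (grey bars, number of targets per bin on a log axis) with the 28 N-glycan genes as ticks. B3GNT2 at -0.59 (red) passed the threshold, RPN1 at 0.53 just missed it, and the other 26 genes lay between -0.27 and 0.27.

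The smallest mean, without its sign, that passed among targets with 5 guides was 0.48 in H1, 0.34 in H2, 0.31 in H3 and 0.41 in H6, the 4 sublibraries that hold the compared genes. In 26 of the 28 genes the mean was nearer to 0 than that. Of all targets, 2.58% passed in H1, 5.95% in H2, 7.46% in H3 and 1.27% in H6. Library totals in these 4 ran from 23689738 to 34636612 counts in the top and from 18054418 to 27478717 in the bottom libraries. Non-targeting guides had an SD of 0.215 to 0.272, against 0.055 to 0.068 from counting alone.

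B3GNT2 adds N-acetylglucosamine to galactose and so extends poly-N-acetyllactosamine chains on N-glycans. Its 5 guides had 860, 2524, 1979, 934 and 3112 counts in the top, against 1138, 2612, 2151, 1100 and 3502 in the bottom library of H6, in order of position. Each guide was lower in the top library although that library held more counts in all. The centred log2 ratios were -0.79, -0.44, -0.51, -0.63 and -0.56, so no guide overlapped 0. The mean was -0.59 ± 0.13 (SD, n = 5 guides), a 0.666-fold share in bright against dim cells, with a permutation adjusted p of 0.00326. The guides lay in 2 places, 2 of them within 31 bases and the other 3 at 403 to 419 bases from the first, and both places gave negative ratios. Their SD stood at the 17.2 percentile of all targets. The non-targeting guides of H6 ran from -0.83 to 1.22, and 2 of the 5 B3GNT2 guides lay below their 2.5 percentile of -0.56, while the other 3 lay above it. The guides were not scarce: their abundance, the log2 of top plus bottom counts relative to the median non-targeting guide, averaged 0.37 ± 0.79 (SD, n = 5 guides). B3GNT2 passed in 14 of 16 alternative settings, with values from -0.66 to -0.54 and adjusted p from 1.80e-11 (DESeq2) to 0.284 (permutation). Several settings, such as adjustment within sublibraries and the exact rank-sum test, left its mean at -0.59 by construction. The permutation adjusted p was 0.0302 within sublibraries and 0.0389 without the farthest guide. B3GNT2 did not pass with no filter on guide counts (permutation adjusted p 0.284; 3.59% of all targets passed) or by the 3 farthest guides (0.0600). Without the filter H6 had 245 non-targeting guides with an SD of 0.392, against 241 with an SD of 0.272. In H6, 2 targets passed without the filter, against 33 with it. The edgeR quasi-likelihood test with guides as blocks gave an adjusted p of 0.00585 with non-targeting scaling and 0.00621 with TMM. In these fits 1.49% and 1.5% of the 17071 targets with exactly 5 guides passed. With 1 library per quartile, edgeR and DESeq2 took the guides of a target in place of replicates, so their p-values, like those of the permutation test, describe this pair of libraries and not repeated sorts.

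**Figure D2:**
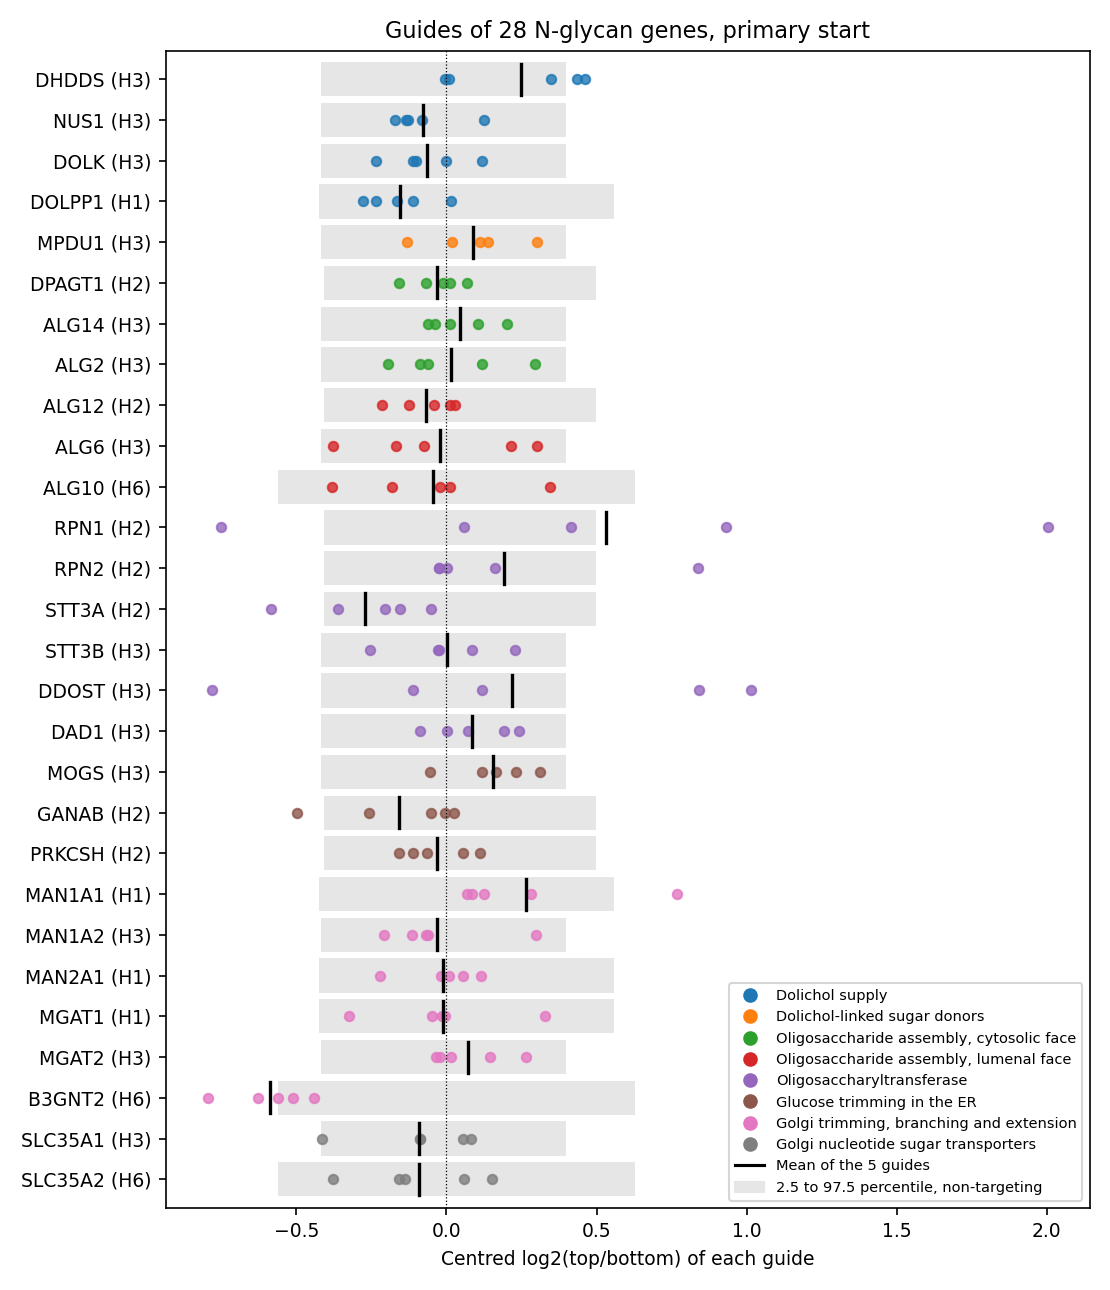
Centred log2(top/bottom) of each of the 5 guides of the 28 compared N-glycan genes (points, coloured by role), their mean (black bar) and the range that leaves 2.5% of that sublibrary's non-targeting guides on either side (grey). All 5 B3GNT2 guides lie left of 0, while guides of RPN1 and DDOST lie beyond the grey range on both sides.

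All 6 compared subunits of the oligosaccharyltransferase missed the threshold, and guides of RPN1 and DDOST lay far apart. RPN1 (ribophorin I) helps to hold substrates near the catalytic subunit. Its guides had 140, 2293, 2426, 213 and 2850 counts in the top, against 186, 1352, 1001, 41 and 2155 in the bottom library. The ratios were -0.75, 0.42, 0.93, 2.00 and 0.06, with 4 of 5 guides above 0. The guide at 2.00 rests on 41 counts in the bottom library, with a counting standard error of 0.24, and the guide at -0.75 on 140 and 186 counts. The mean was 0.53 ± 1.03 (SD, n = 5 guides), and the permutation adjusted p of 0.0513 missed the threshold. A second set of draws gave 0.0482, so RPN1 stands at the threshold itself. It passed in 6 of 16 alternatives, with adjusted p from 0.0338 to 1.00. Without the guide at 2.00 the mean was 0.16. With edgeR the adjusted p was 0.710, and by exact rank-sum test, which called 2.72% of all targets, 0.650.

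DDOST, a subunit that stabilises the complex, had guides with 783, 2237, 75, 1261 and 3017 counts in the top, against 1176, 1798, 36, 544 and 2843 in the bottom library. The ratios of -0.78, 0.12, 0.84, 1.02 and -0.11 lay on both sides of 0, and 3 of them outside the non-targeting range of H3. The mean was 0.22 ± 0.73 (SD, n = 5 guides; permutation adjusted p 0.355). The guide SDs of RPN1 and DDOST ranked above 99.3% and 97.8% of all targets.

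RPN2 (ribophorin II) had 1391, 360, 2835, 1630 and 3281 counts in the top, against 1093, 158, 1992, 1306 and 2629 in the bottom library. Only the guide with the fewest counts stood apart, at 0.84, and the other 4 lay between -0.03 and 0.16. The mean was 0.19 ± 0.37 (SD, n = 5 guides; permutation adjusted p 0.503), and 1 of its guides has the same position as a guide of MROH8, whose own mean was -0.00. STT3A, the catalytic subunit that works at the translocon, had 2603, 730, 1399, 2024 and 817 counts in the top, against 2282, 861, 1268, 1650 and 827 in the bottom library. All 5 ratios were below 0, from -0.58 to -0.05, and the mean was -0.27 ± 0.21 (SD, n = 5 guides; permutation adjusted p 0.179). STT3B, the catalytic subunit that also modifies proteins after translocation, had a mean of 0.00 ± 0.18 with guides from -0.26 to 0.23, and DAD1, a small structural subunit, 0.08 ± 0.13 with guides from -0.09 to 0.24 (SD, n = 5 guides each). Neither passed. The 2 catalytic subunits were not tested against each other.

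**Figure D3:**
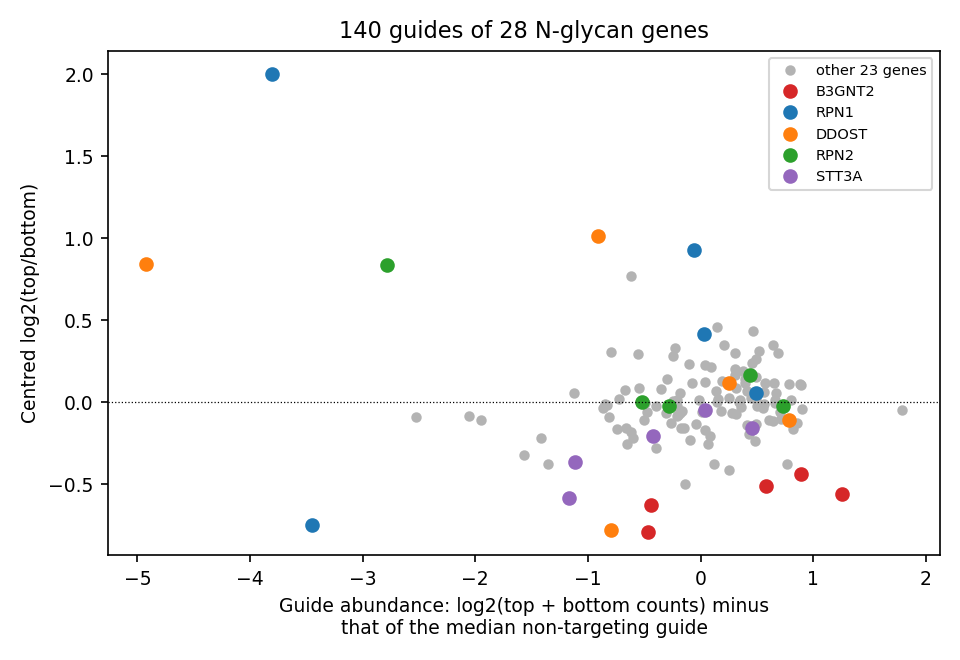
Guide abundance (x axis, log2 relative to the median non-targeting guide of the sublibrary) against centred log2(top/bottom) (y axis) for the 140 guides of the 28 compared N-glycan genes. The 4 scarcest guides belong to DDOST, RPN1 and RPN2 and have ratios from -0.75 to 2.00, while the B3GNT2 guides sit between -0.47 and 1.26 in abundance.

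The abundance of guides is a second readout of the same libraries. No library from before the screen is among the samples, so loss of cells during growth and an uneven starting library cannot be told apart. Abundance averaged -1.36 ± 2.09 for RPN1 and -1.12 ± 2.24 for DDOST (SD, n = 5 guides each), at the 1.12 and 0.692 percentile of their sublibraries. These were the 2 N-glycan genes below -1, or 7.14% of 28, against 5.70% of all targets. In both, single guides carried the low mean: RPN1 had abundances of -3.45, 0.03, -0.06, -3.81 and 0.49, and DDOST -0.79, 0.25, -4.92, -0.91 and 0.79. DAD1 averaged -0.31, RPN2 -0.48, STT3A -0.44 and SLC35A1 -0.60, whereas DPAGT1, which starts the oligosaccharide, averaged 0.24 and DHDDS 0.54. The median over the 28 genes was -0.02, against -0.11 over all targets. Of the 13 N-glycan guides with an abundance under -1, 5 (38.5%) had a ratio outside the non-targeting range, and of the other 127, 9 (7.09%) did. Over all targeting guides the shares were 22.0% of 14726 below that abundance and 6.34% of the other 74743. Whether scarcity of a guide has a part in its ratio was not tested. Over all 140 guides, 8 (5.71%) lay above and 6 (4.29%) below the range that leaves 2.5% of non-targeting guides on either side, compared with 4.64% and 4.28% of 89469 targeting guides.

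Dolichol supply was represented by 4 genes, and 0 passed. DHDDS, the catalytic subunit of the cis-prenyltransferase that makes the dolichol chain, had 3143, 2840, 2298, 3173 and 2869 counts in the top, against 2154, 1834, 1458, 2751 and 2513 in the bottom library. The first 3 guides, within 71 bases, had ratios of 0.35, 0.43 and 0.46, whereas the 2 guides from 367 to 372 bases on had 0.01 and -0.00. The mean was 0.25 ± 0.23 (SD, n = 5 guides; permutation adjusted p 0.171). This SD stood at the 53.2 percentile of all targets. The split of DHDDS guides by position was not planned, and the 2 places were not tested against each other. NUS1, the partner subunit of DHDDS, had -0.08 ± 0.12, with guides from -0.17 to 0.13. DOLK, which phosphorylates dolichol, had -0.07 ± 0.13, and DOLPP1, which recycles dolichyl pyrophosphate, -0.15 ± 0.12 (SD, n = 5 guides each). DOLPP1 guides had 1285, 2739, 527, 1200 and 1467 counts in the top, against 1020, 2589, 457, 1080 and 1430 in the bottom library, and 4 of 5 ratios were below 0. DHDDS and NUS1 work as 1 enzyme, and their means lay on opposite sides of 0, with no test between them.

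For sugar donors and assembly, all compared genes lay within 0.10 of 0. MPDU1, needed for the use of dolichol-linked mannose and glucose, had 0.09 ± 0.16 (SD, n = 5 guides). Its guides had 2563, 1540, 1689, 1145 and 3243 counts in the top, against 2207, 1220, 1615, 810 and 2618 in the bottom library, with ratios from -0.13 to 0.30. On the cytosolic face DPAGT1, the enzyme inhibited by tunicamycin, had -0.03 ± 0.09 (SD, n = 5 guides), with 2710, 1714, 2949, 1576 and 3174 counts in the top, against 2032, 1504, 2337, 1299 and 2478 in the bottom library. Its 5 ratios ran from -0.16 to 0.07 and straddled 0. ALG14, which anchors the second N-acetylglucosamine transferase, had 0.04 ± 0.11, and the mannosyltransferase ALG2 0.01 ± 0.19. ALG2 guides come within 418 bases of those of SEC61B, a subunit of the translocon channel. SEC61B itself was called lower in the top, at -0.52 ± 0.24, with a permutation adjusted p of 6.81e-04 (SD, n = 5 guides), while the ALG2 guides ran from -0.19 to 0.30. SEC61B was picked out after its value was seen. On the lumenal face the mannosyltransferase ALG12 had -0.07 ± 0.10, and the glucosyltransferases ALG6 and ALG10 had -0.02 ± 0.28 and -0.05 ± 0.27 (SD, n = 5 guides each). ALG10 has a close copy, ALG10B, and whether guides for 1 reach the other is not known from the names.

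Of the 3 genes of glucose trimming, 0 passed. Glucosidase I, MOGS, had 1808, 2353, 2862, 1780 and 2013 counts in the top, against 1345, 1832, 2013, 1432 and 1825 in the bottom library. Its mean was 0.15 ± 0.14, with 4 of 5 guides above 0. The subunits of glucosidase II, GANAB (catalytic) and PRKCSH (regulatory), had -0.16 ± 0.22 and -0.03 ± 0.11 (SD, n = 5 guides each). GANAB guides had 1169, 2403, 1749, 1532 and 1401 counts in the top, against 1100, 1858, 1427, 1703 and 1105 in the bottom library. The GANAB mean owed most to a guide at -0.50; without it the mean was -0.07.

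Among the 6 Golgi enzymes of the 28 genes, the mannosidase MAN1A1 had the mean farthest from 0 after B3GNT2. It had 2259, 1937, 1691, 1483 and 2377 counts in the top, against 1664, 1279, 797, 1122 and 1822 in the bottom library. All 5 ratios were above 0, but 1 of 0.77 stood apart from the other 4, at 0.07 to 0.28. The mean was 0.27 ± 0.29 (SD, n = 5 guides; permutation adjusted p 0.368), and without that guide 0.14. MAN1A2, of the same enzyme class, had -0.03 ± 0.19, and MAN2A1, mannosidase II, -0.01 ± 0.13. MGAT1 adds the first branch and is required for complex N-glycans. It had -0.01 ± 0.23 at its first start and -0.06 ± 0.15 at its second start. MGAT2, which adds the next branch, had 0.07 ± 0.13. The transporters of CMP-sialic acid, SLC35A1, and of UDP-galactose, SLC35A2, had -0.09 ± 0.20 and -0.09 ± 0.21 (SD, n = 5 guides each). SLC35A1 guides had 1866, 1525, 1456, 1629 and 305 counts in the top, against 2171, 1414, 1201, 1368 and 283 in the bottom library, and the guide at -0.41 stood apart from the other 4, at -0.09 to 0.08. The substrate that B3GNT2 extends is galactose, which the Golgi receives through SLC35A2. The SLC35A2 guides had 2364, 2311, 2000, 2367 and 1323 counts in the top, against 1729, 1584, 1677, 2345 and 1125 in the bottom library. Their ratios ran from -0.38 to 0.15. In the same pair of libraries the ALG10 guides ran from -0.38 to 0.35 and the B3GNT2 guides from -0.79 to -0.44. How many other H6 targets have all guides above those of B3GNT2 was not counted, so these ranges single out neither gene. SLC35A2 and B3GNT2 were not tested against each other.

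A wider list of 62 further N-glycan genes was drawn up, of which 53 could be compared. It holds accessory oligosaccharyltransferase subunits, ER quality control, other Golgi enzymes and nucleotide sugar synthesis. By the permutation test 0 passed in either direction, and at an unadjusted p under 0.05 the count was 3 toward the top and 2 toward the bottom, or 9.43% against 12.4% of all targets. The median mean was -0.00. Farthest from 0 were the UDP-N-acetylglucosamine transporter SLC35A3 at 0.34 ± 0.70, the chaperone calnexin (CANX) at -0.40 ± 0.14, the folding sensor UGGT1 at -0.29 ± 0.12 and the glycosyltransferase B3GNT3 at 0.25 ± 0.30 (SD, n = 5 guides each). The SLC35A3 mean rested on 1 guide at 1.58 and was 0.03 without it. For CANX at its first start the 5 guides ran from -0.59 to -0.22, and for UGGT1 from -0.46 to -0.16, so neither gene had a guide above 0. Their permutation adjusted p was 0.108 and 0.116. By exact rank-sum test the adjusted p was 0.00170 and 0.0470. With DESeq2, which called 3.83% of the 17071 targets with exactly 5 guides, it was 0.00141 and 0.0110. Both genes passed there, in tests that took guides in place of replicates of 1 pair of libraries. With edgeR they did not pass. CANX passed in 4 and UGGT1 in 2 of the 16 alternatives. At its second start CANX had -0.11 ± 0.09. The 6 accessory oligosaccharyltransferase subunits OSTC, TUSC3, MAGT1, KRTCAP2, OST4 and TMEM258 lay between -0.09 and 0.08.

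The remaining 12 N-glycan genes are in H4, whose top table holds 35 complete guides, none of them for these genes. Their 60 guides were read from the bottom library, which held 16805160 counts, with a median of 1363.5 for its 250 non-targeting guides. Lowest in abundance were DPM2, a regulatory subunit of dolichol-phosphate-mannose synthase, at -0.48 ± 0.92, and the mannosyltransferase ALG3 at -0.42 ± 0.46 (SD, n = 5 guides each). The 5 DPM2 guides had 437 to 1660 counts and the ALG3 guides 665 to 1611. SRD5A3, which makes dolichol from polyprenol, had -0.42 ± 1.11, the mannosyltransferases ALG9, ALG1 and ALG11 -0.42 ± 0.91, -0.38 ± 1.05 and -0.18 ± 0.60, and the glucosyltransferase ALG8 -0.33 ± 0.69. ALG5, which makes dolichol-phosphate-glucose, had -0.11 ± 1.04, and the synthase subunits DPM3 and DPM1 -0.04 ± 0.35 and -0.01 ± 0.78. ALG13, partner of ALG14, had 0.27 ± 0.48 and ALG10B 0.35 ± 0.56 (SD, n = 5 guides each). The median of the 12 was -0.25, against -0.13 over the 2410 targets of H4, and the non-targeting guides had an SD of 0.710. The spread over guides exceeded the distance from 0 in each of the 12 genes. At least 1 guide of ALG11 has the same position as a guide of UTP14C.

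**Figure D4:**
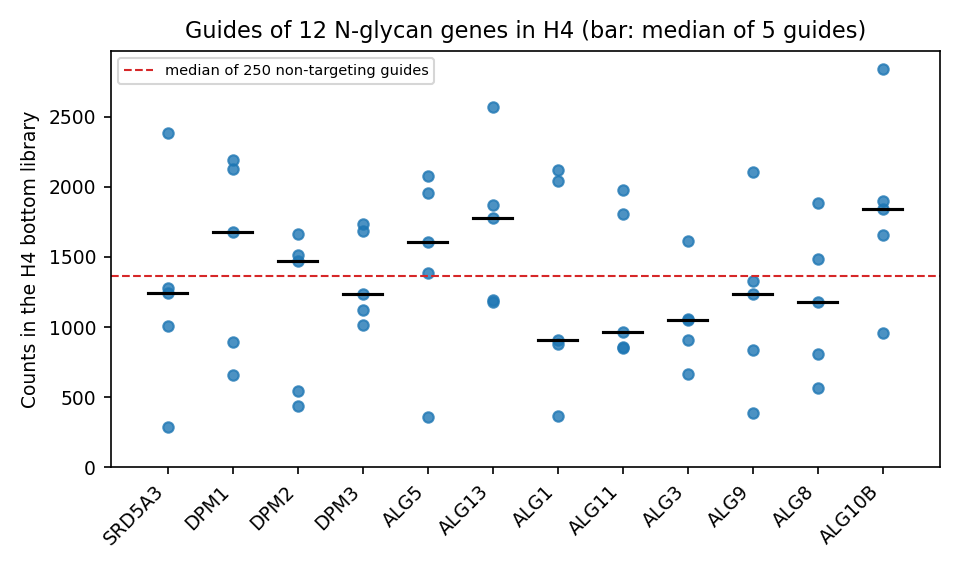
Counts in the H4 bottom library for the 5 guides of each of 12 N-glycan genes (points), their median (bar) and the median of 250 non-targeting guides (dashed line, 1363.5 counts). Guides range from 290 to 2841 counts, and every gene has guides on both sides of the line.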

How the data were processed

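Guide counts of a pooled CRISPR interference screen were analysed, 14 libraries with 1 per sublibrary and quartile, grouped by their titles. The counts were deposited by the authors as whole numbers per guide with no normalization; Bowtie is named in the submitters' processing notes, and its version was not given in the sources used here. Libraries were made from genomic DNA by PCR in 27 cycles, with no molecular identifiers described, so counting errors cover counting only.

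After a pseudocount of 1, counts were scaled to library totals, and the log2 ratio of top over bottom had the median of the sublibrary's non-targeting guides subtracted. Guides with at least 50 counts in either library and targets with at least 3 guides entered, and a gene was taken at its primary start; all 140 guides of the 28 compared N-glycan genes passed this filter. The mean of a target was compared with those of 100000 random draws from its own and the non-targeting guides (numba 0.67.0), with Benjamini-Hochberg adjustment over all 18116 targets. edgeR 4.0.16 and DESeq2 1.42.0, with guides as blocks, were alternatives, since with 1 library per group no spread over samples can be estimated. The procedures were tested on simulated data, with guide noise drawn from a normal distribution with the non-targeting SD. Real non-targeting guides reached 1.22 in H6, with an SD of 0.272, so the simulation does not cover such outlying guides. No result given here rests on it. Genes were named by a rule: those past the threshold, the 12 farthest from 0 relative to the non-targeting SD, the 4 farthest of the wider list, and targets within 1000 bases of a called gene, of which B3GNT2 has none. Guide values of DPAGT1 and SLC35A2, the neighbours SEC61B, MROH8 and UTP14C, and the accessory subunits were added after the values were seen. H4 was not compared, and 0 columns belonged to other series. Positions were compared on chromosomes taken from a RefSeq table of GRCh38.p14, which matched 18814 of 18905 symbols. The members and lists were chosen with earlier results of these data known.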

Additional observations from a re-analysis of the deposited data

How the results depend on the processing

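The single call, B3GNT2 in the bottom direction, was lost with no filter on guide counts and with the 3 farthest guides, where 0 N-glycan genes were higher in the bottom. RPN1 became 1 gene higher in the top with adjustment within sublibraries, with a pseudocount of 10, with centring on all guides, without guides of 0 counts, without guides of several targets, and with another set of random draws, which was chosen after seeing the data. Of the wider list, 1 gene was higher in the bottom with at least 100 counts in both libraries and by the median of guides, and 2 by exact rank-sum test and with DESeq2. Over all targets 705 passed, and leaving out the farthest guide lowered this to 311, edgeR with non-targeting scaling to 254 and edgeR with TMM to 256; the other 13 alternatives gave 493 to 741. The farthest guide was left out of each target but not of the random draws, so that setting leans toward fewer calls by its construction. The cause of the other changes was not tested. The median abundance of the 28 genes stayed between -0.04 and -0.00. None of the 12 N-glycan genes and 4 genes of the wider list that were named by the rule changed sign under the 16 alternatives. The other compared genes were not followed in this way, and means near 0 can change sign. STT3B had a mean of 0.00 and a median guide of -0.02, and ALG2 a mean of 0.01 and a median guide of -0.06. Each group holds 1 library, so none could be left out in turn. Pairing over repeat sorts was not possible because each group holds 1 library. The top and bottom libraries of a sublibrary were always compared with each other, guide by guide.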
